A study of Mus musculus with 12 samples.

Results

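T cells and cytotoxic lymphocytes were followed in bulk RNA sequencing of mouse malignant peripheral nerve sheath tumours through 37 genes, chosen by name as genes of the T cell receptor complex, of helper, regulatory and CD8 T cells, and of natural killer cells. All 37 were found among the 54532 gene identifiers of the deposited tables, and 36 had counts high enough to be tested. The mice were of strain C57B/6 and genotype WT, and their tumours were raised with an adenovirus carrying a Cas9 system against Nf1 and Cdk2na, as the labels spell it. Vehicle control mice gave 4 tumours, taken at the terminal harvest. The other 8 tumours came from mice dosed every day by oral gavage with Palbociclib, a CDK4/6 inhibitor, at 100 mg/kg and Mirdametinib, a MEK inhibitor, at 1 mg/kg. Of these, 4 were taken during regression (regressing) and 4 at the terminal harvest (terminal combination). The series distinguishes combination-sensitive from combination-resistant tumours, and no label used here ties those names to a harvest time. The labels do not say that each tumour came from a separate mouse, and p-values here reflect only sample-to-sample spread, which may be technical.

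T cells recognise peptide through a receptor whose alpha and beta chains are held at the surface by the CD3 chains, with CD4 or CD8 as coreceptor, and signal through the kinases LCK and ZAP70 and the adaptor LAT. CD8 T cells and natural killer cells kill by releasing perforin and granzymes, natural killer cells without an antigen receptor. In tumours, FOXP3-expressing regulatory CD4 T cells restrain this killing.

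One property of the libraries touches most values. Regressing replicate 4 stood apart from the other 11 tumours for lymphocyte genes of several kinds, and results that rest on it are given with and without it. It was the shallowest library, at 13194699 counts in a range up to 22639625, and had the highest share of mitochondrial counts (2.14%, against 0.562% to 1.95% in the others). Skeletal muscle genes were abundant in regressing replicate 1, terminal combination replicate 2 and regressing replicate 4, with summed levels of 58540, 36940 and 33480 CPM (counts scaled by the size of the library), against 619 to 15340 in the other 9. Summed Schwann lineage genes, the labelled tumour's lineage, were at 371 to 445 CPM in the vehicle tumours, 144 to 252 in the regressing and 179 to 728 in the terminal combination tumours, although Sox10, a defining factor of that lineage, gave a level within the limit of a count of 0 in all 4 vehicle tumours.

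Together the 37 genes summed to 150 to 211 CPM in the vehicle tumours. The regressing tumours stood at 147, 270, 78.9 and 1190 CPM for replicates 1 to 4, and the terminal combination tumours at 149.6, 103.6, 89.8 and 275 CPM. The treated tumours of each harvest thus spread to both sides of the vehicle range. In some tumours Trbc2, Cd4 and Tcf7 made up much of the sum. They were at 41.0, 18.4 and 22.2 CPM in terminal combination replicate 2 and at 42.5, 21.1 and 64.6 in vehicle replicate 3. In regressing replicate 4 they were at 78.6, 73.7 and 89.7 CPM. As described below, they did not follow the CD3 genes in every tumour. Regressing replicate 4 was the highest of the 12 tumours for 33 of the 36 tested genes, where it was highest for 11.7% of all genes tested. The 3 exceptions were Ncr1 and Klrb1c, highest in terminal combination replicate 4 (6.59% of all genes were), and Gzmk, highest in regressing replicate 2 (4.95% of all). The lowest of the 12 tumours was regressing replicate 3 for 14 genes (3.99% of all) and terminal combination replicate 2 for 13 (11.0% of all). The 14 include 2 ties at 0 counts, Foxp3 with terminal combination replicate 4 and Gzma with terminal combination replicate 2. In bulk tissue, fewer cells of a type and less RNA per cell cannot be told apart.

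**Figure D1:**
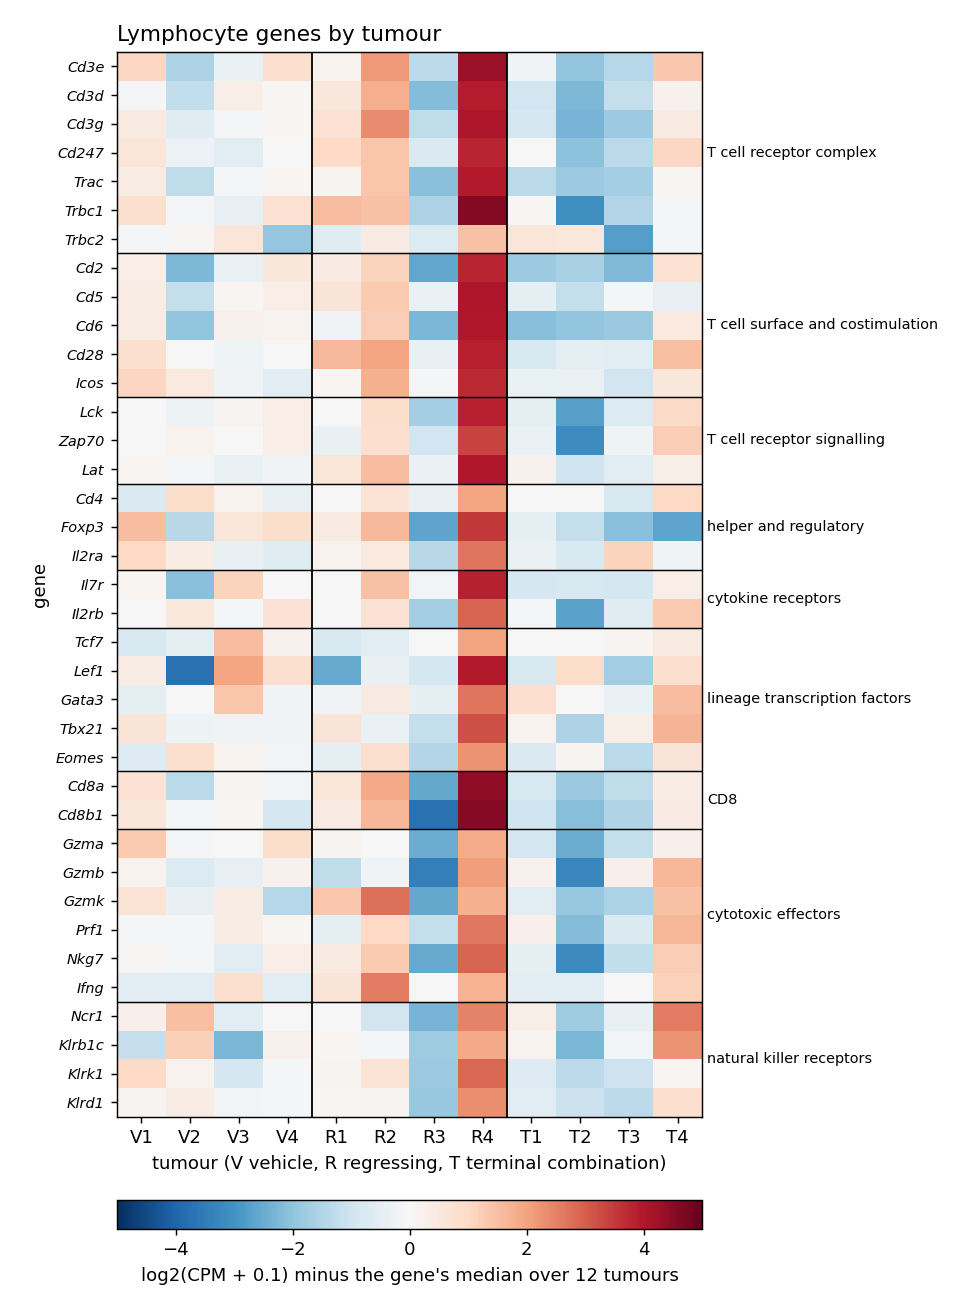
Level of each of the 37 genes (rows, grouped by role) in each of the 12 tumours (columns), as log2(CPM + 0.1) minus the gene's median over the tumours, red above and blue below. Regressing replicate 4 (R4) is the highest column for 33 of the 36 tested genes, and regressing replicate 3 (R3) and terminal combination replicate 2 (T2) are mostly blue.

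Set against the range of the 4 vehicle tumours, regressing replicate 4 lay above it for 36 of 36 genes (26.2% of all genes tested) and below it for 0 (27.6% of all), and replicate 2 lay above it for 22 (17.4% of all). Regressing replicate 1 lay above it for 9 genes and below for 3, near or under the backgrounds of 24.5% and 23.9%. Regressing replicate 3 lay below the vehicle range for 25 genes (17.9% of all) and above it for 0 (15.9% of all). In the terminal combination group, replicates 2 and 3 lay below the vehicle range for 24 and 21 genes (26.2% and 15.7% of all), and replicate 1 for 11 (21.1% of all). Replicate 4 of that group lay above it for 19 genes (20.7% of all) and below for 1 (21.6% of all). No gene of the 36 separated 2 groups without overlap in any of the 3 comparisons, where 1.21% to 4.13% of all genes did so in a given direction.

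**Figure D2:**
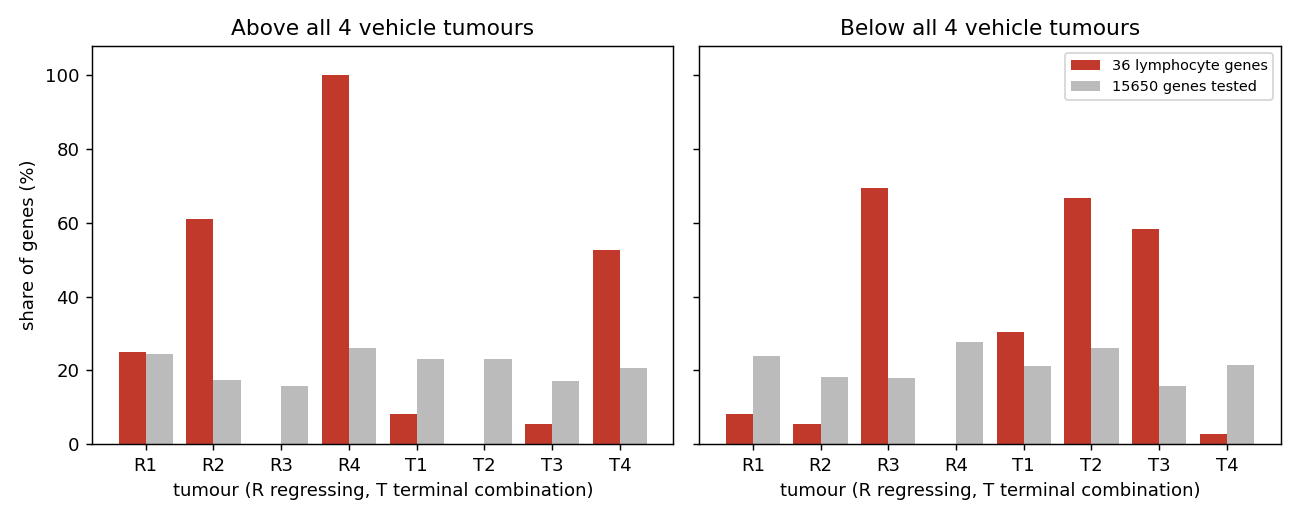
Share of genes (percent, from 0) above the highest (left) or below the lowest (right) of the 4 vehicle tumours in each treated tumour, for the 36 tested lymphocyte genes (red) and all 15650 genes tested (grey). The red bars exceed the grey ones on the left in R2, R4 and T4 and on the right in R3, T1, T2 and T3, and in R1 they are close to the grey on the left.

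Regressing tumours were compared with vehicle tumours to ask whether lymphocyte transcripts differ while tumours shrink under the drugs. No gene of the set passed an adjusted p of 0.05 (edgeR quasi-likelihood test, Benjamini-Hochberg over 15650 genes), and 0.0% of all genes did; adjusted p-values of the 36 ran from 0.267 to 0.96. At an unadjusted p under 0.05, 12 of the 36 were higher in regressing tumours, against 6.72% of all genes. Icos, Foxp3, Gzma and Gzmk had fewer than 4 libraries above the filter level outside the regressing group; of the other 32 genes, 32 were higher and 11 were at that p. The fitted difference was positive for 35 of 36 genes (48.5% of all), with a median of 1.65 log2 units against -0.02 over all genes. Without regressing replicate 4 it was positive for 18 of 36 (47.3% of all), the median was 0.03, and 0 genes reached an unadjusted p under 0.05, where 8.68% of all genes did and 4.65% did as higher. DESeq2 called 1 of the genes, Lat, at an adjusted p of 0.0294 (485 genes in all, 2.66%), and 0 without regressing replicate 4, where Lat had an adjusted p of 0.51 (177 genes in all, 1.04%).

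Regressing and terminal combination tumours had the same drugs and differed in harvest. By edgeR 0 of the 36 genes passed the adjusted threshold (0.0% of all), with adjusted p from 0.692 to 0.998. The regressing tumours were higher for 33 genes (49.2% of all), 18 of them at an unadjusted p under 0.05 (2.9% of all), and the median difference was 2.0 log2 units. Of the 32 genes other than Icos, Foxp3, Gzma and Gzmk, 29 were higher, 16 of them at that p. Without regressing replicate 4 the median was 0.62, 22 genes were higher (48.8% of all), and 2, Cd3g and Cd5, were at an unadjusted p under 0.05 (1.57% of all). DESeq2 called 3 genes, Trbc1, Cd3g and Cd5, at adjusted p-values of 0.0437, 0.0379 and 0.0458 (82 genes in all, 0.462%), and 0 without regressing replicate 4, where the lowest adjusted p of the set was 0.666 (23 genes in all, 0.124%).

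Terminal combination tumours were compared with vehicle tumours at the shared terminal harvest. Of the 36 genes 9 were higher in the treated tumours (50.4% of all), the median difference was -0.29 log2 units against 0.0 over all genes, and adjusted p-values ran from 0.834 to 1.0 by edgeR. None of the 36 reached even an unadjusted p under 0.05 (5.94% of all genes did, 3.35% as higher), and DESeq2 called 0 of the set with all tumours (0.0531% of all) and 0 without regressing replicate 4 (0.0393% of all). Without terminal combination replicate 4 the median was -1.06, and without replicate 2 or 3 of that group -0.15. The regressing and terminal combination comparisons share the vehicle tumours.

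**Figure D3:**
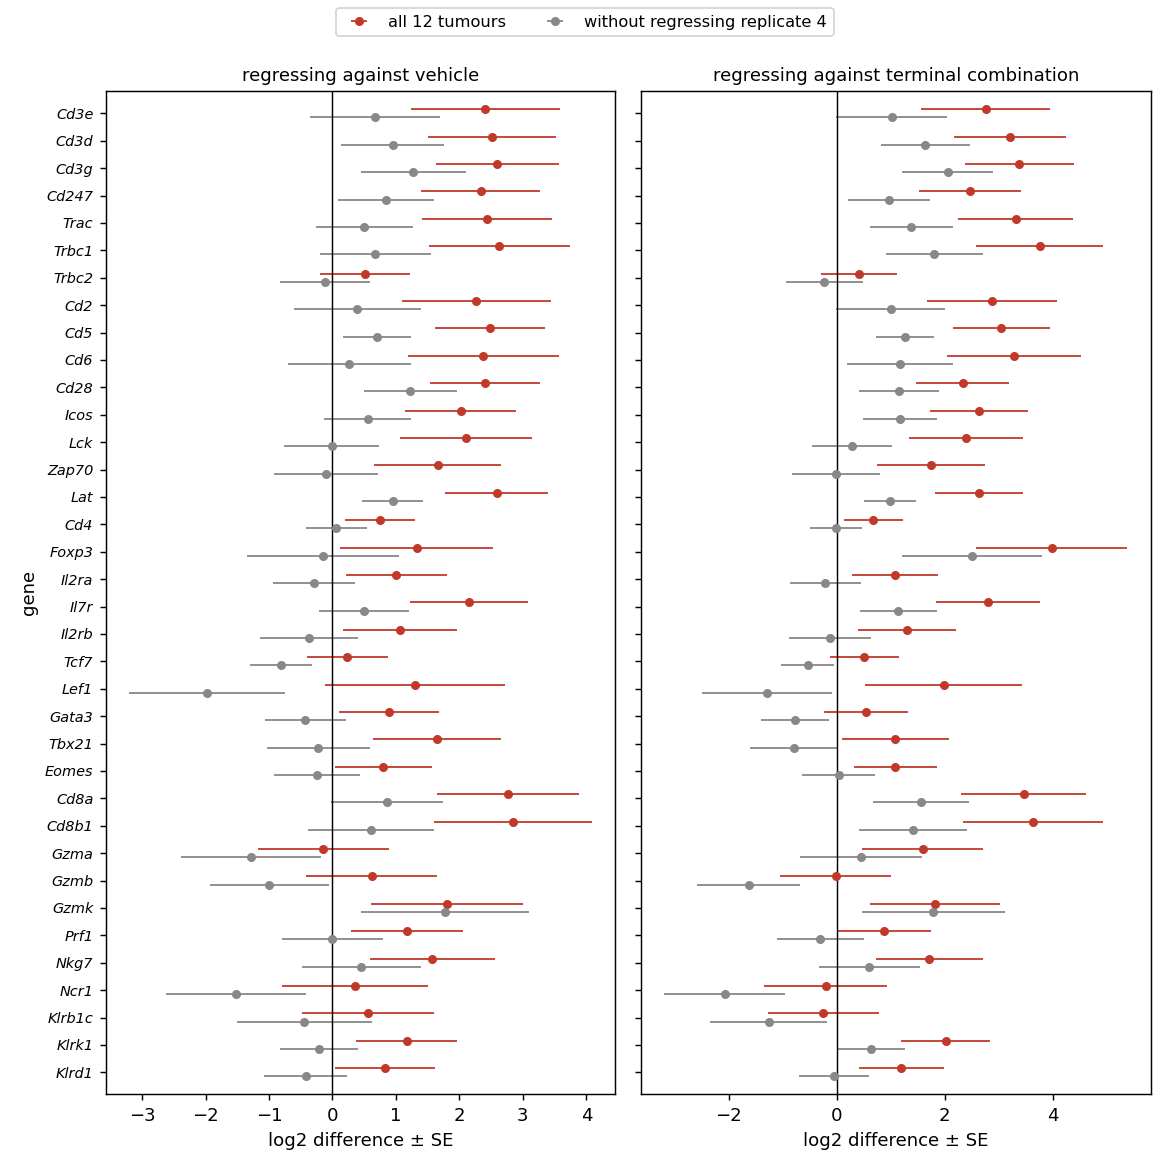
Fitted log2 difference with its standard error (horizontal axis) for each of the 36 tested genes, from all 12 tumours (red) and without regressing replicate 4 (grey), for regressing against vehicle (left) and regressing against terminal combination (right). Without that tumour the median difference moves from 1.65 to 0.03 on the left and from 2.0 to 0.62 on the right.

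Promoters of 4 genes are printed for orientation, 1 each for the receptor complex, CD8, the cytotoxic effectors and the natural killer receptors. No helper or regulatory gene is printed. They are the 250 bases before the RefSeq start site on build GRCm38.p6, 5′ to 3′ on the gene's strand: Cd3d at chr9:44981536-44981785 (+), Cd8a at chr6:71373177-71373426 (+), Gzmb at chr14:56262335-56262584 (-) and Ncr1 at chr7:4337465-4337714 (+). Capitals mark letters searched on both strands: AGGAAG (ETS factors), TGTGGT (RUNX), CTTTGA (TCF-LEF) and GGTGTG (T-box).
Cd3d: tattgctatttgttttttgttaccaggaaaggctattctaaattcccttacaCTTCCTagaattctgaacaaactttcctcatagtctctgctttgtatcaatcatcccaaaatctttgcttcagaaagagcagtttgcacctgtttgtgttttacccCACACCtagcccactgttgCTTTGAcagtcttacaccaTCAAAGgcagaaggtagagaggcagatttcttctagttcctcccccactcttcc
Cd8a: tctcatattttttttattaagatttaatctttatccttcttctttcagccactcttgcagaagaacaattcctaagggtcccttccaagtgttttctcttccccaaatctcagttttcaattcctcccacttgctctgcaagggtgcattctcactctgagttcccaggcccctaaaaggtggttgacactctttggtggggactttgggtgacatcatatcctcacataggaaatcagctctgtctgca
Gzmb: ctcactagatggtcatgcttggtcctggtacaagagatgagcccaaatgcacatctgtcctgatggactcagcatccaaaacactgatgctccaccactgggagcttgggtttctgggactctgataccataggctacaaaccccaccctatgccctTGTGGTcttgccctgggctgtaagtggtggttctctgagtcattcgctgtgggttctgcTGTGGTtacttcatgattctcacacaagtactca
Ncr1: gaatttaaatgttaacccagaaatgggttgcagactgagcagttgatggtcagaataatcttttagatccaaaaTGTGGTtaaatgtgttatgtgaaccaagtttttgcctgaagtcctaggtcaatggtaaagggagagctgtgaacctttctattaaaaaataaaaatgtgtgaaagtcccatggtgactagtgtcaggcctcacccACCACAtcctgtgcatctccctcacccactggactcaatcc
RefSeq windows were found for 26 of the 37 genes, 35 windows in all. AGGAAG lay in 48.6% of them (29.5% of 32851 mouse windows of this length), TGTGGT in 28.6% (14.0%), CTTTGA in 11.4% (13.8%) and GGTGTG in 22.9% (16.3%). The Cd8a window held none of the 4, and a match is a description of letters only.

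The receptor complex was measured by 7 genes. Cd3g, the CD3 gamma chain (chromosome 9, 44969572 to 44980431), was at 3.46, 1.57, 2.29 and 2.68 CPM in vehicle replicates 1 to 4, at 4.21, 13.0, 0.976 and 42.7 in the regressing and at 1.33, 0.417, 0.635 and 3.42 in the terminal combination tumours. Regressing replicates 2 and 4 were far above the vehicle tumours, replicate 3 was below them all, and 3 of the terminal combination tumours were below them as well. The regressing mean was 15.2 ± 19.0 CPM (SD, n = 4) against 2.5 ± 0.789 in vehicle tumours, a difference of 2.59 ± 0.97 log2 units (SE; adjusted p = 0.308, edgeR). Without regressing replicate 4 the difference was 1.27 ± 0.83 (adjusted p = 0.704). Against terminal combination tumours it was 3.38 ± 1.01 (adjusted p = 0.692), and 2.06 ± 0.84 without that tumour (adjusted p = 0.966).

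Cd3d and Cd3e, the delta and epsilon chains, lie beside Cd3g on chromosome 9. They reached 46.1 and 26.1 CPM in regressing replicate 4 and 10.6 and 5.69 in replicate 2, and did not exceed 4.4 and 3.25 in any other tumour. Cd247, the signalling zeta chain, and Trac, the constant part of the alpha chain, were at 22.8 and 54.5 CPM in regressing replicate 4 and at most 4.18 and 8.94 elsewhere. Trbc1, a constant gene of the beta chain, was at 32.3 CPM there and at most 3.82 elsewhere. All 7 genes were higher on average in regressing than in vehicle tumours (48.5% of all genes tested were). By edgeR 5 of them were at an unadjusted p under 0.05 (6.72% of all, as higher). Without regressing replicate 4, 6 of 7 were higher (47.3% of all), 0 of them at that p (4.65% of all, as higher).

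Trbc2, the other beta constant gene, kept another pattern. It was at 26.8, 29.8, 42.5 and 7.29 CPM in the vehicle, 18.6, 37.3, 17.5 and 78.6 in the regressing and 42.6, 41.0, 4.16 and 26.5 in the terminal combination tumours. Terminal combination replicates 1 and 2, with Cd3e at 1.07 and 0.238 CPM, were thus close to the highest vehicle tumour. On the scale of CPM per kilobase of exon its median over the 12 tumours was 40.9, where that of Trac was 3.62 and that of Trbc1 1.65. Of its 50-base stretches 44.0% also occur in Trbc1, so reads of the pair could be split, and how the counting treated them is not given in the sources used here.

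Signalling genes were also highest in regressing replicate 4, with terminal combination replicate 4 next for Lck and Zap70 and regressing replicate 2 next for Lat. Lck, the kinase bound to CD4 and CD8, was at 5.65, 4.72, 6.15 and 7.18 CPM in the vehicle, 5.61, 10.4, 1.64 and 84.2 in the regressing and 3.99, 0.774, 3.42 and 11.1 in the terminal combination tumours. Leaving out regressing replicate 4 changed its regressing mean from 25.4 ± 39.3 to 5.88 ± 4.38 CPM, beside 5.92 ± 1.03 in vehicle tumours. Zap70 and Lat were at 19.98 and 33.9 CPM in regressing replicate 4 and at most 4.45 and 5.98 elsewhere. Lat, the adaptor that ZAP70 phosphorylates, had the lowest unadjusted p of the set against vehicle, 0.00817, with a difference of 2.59 ± 0.81 log2 units (adjusted p = 0.267, edgeR); without regressing replicate 4 it was 0.95 ± 0.48 (adjusted p = 0.614).

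Among the surface receptors, Cd2 (adhesion), Cd5 and Cd6 (modulators of receptor signalling) were at 34.5, 19.8 and 28.1 CPM in regressing replicate 4. In the other 11 tumours they did not exceed 5.34, 2.85 and 4.12. The costimulatory receptors Cd28 and Icos were at 13.0 and 7.64 CPM there and at most 3.31 and 1.86 elsewhere. Cd5 had the lowest unadjusted p against terminal combination tumours, 0.00539, with a difference of 3.05 ± 0.89 log2 units (adjusted p = 0.692, edgeR). It was 1.26 ± 0.54 without regressing replicate 4 (unadjusted p = 0.0409, adjusted p = 0.966). Regressing replicate 2 was next to it for all 5 and lay above all 4 vehicle tumours.

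Cd4, the helper coreceptor, which macrophages and dendritic cells can also carry, varied less. It was at 11.2, 34.6, 21.1 and 14.7 CPM in the vehicle, 18.9, 30.4, 14.5 and 73.7 in the regressing and 18.7, 18.4, 10.7 and 38.1 in the terminal combination tumours. The groups overlapped throughout, and the difference from vehicle was 0.75 ± 0.55 log2 units in regressing (adjusted p = 0.584, edgeR) and 0.07 ± 0.55 in terminal combination tumours (adjusted p = 0.989). The regressing difference was 0.06 ± 0.48 without regressing replicate 4 (adjusted p = 0.981). Summed macrophage genes lay between 1332 and 4510 CPM, and what part of Cd4 they account for was not tested.

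Foxp3, the regulatory T cell factor, was at 1.75, 0.143, 0.864 and 1.05 CPM in the vehicle, 0.765, 1.86, 0 and 7.17 in the regressing and 0.358, 0.179, 0.0489 and 0 in the terminal combination tumours. All 4 terminal combination tumours were below 3 of the 4 vehicle tumours and lay on both sides of vehicle replicate 2. The fitted difference between those groups was -2.65 ± 1.36 log2 units (unadjusted p = 0.0756, adjusted p = 0.834, edgeR), the most negative of the set in that comparison. It rests on 7, 3, 1 and 0 counts in the terminal combination tumours, against 41, 2, 17 and 18 in the vehicle tumours. Of its 50-base stretches 14.7% also occur in the overlapping gene Flicr. Il2ra, the IL-2 receptor alpha chain, was at 10.5 CPM in regressing replicate 4 and 0.532 to 3.52 elsewhere, with terminal combination replicate 3 the highest of those.

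**Figure D4:**
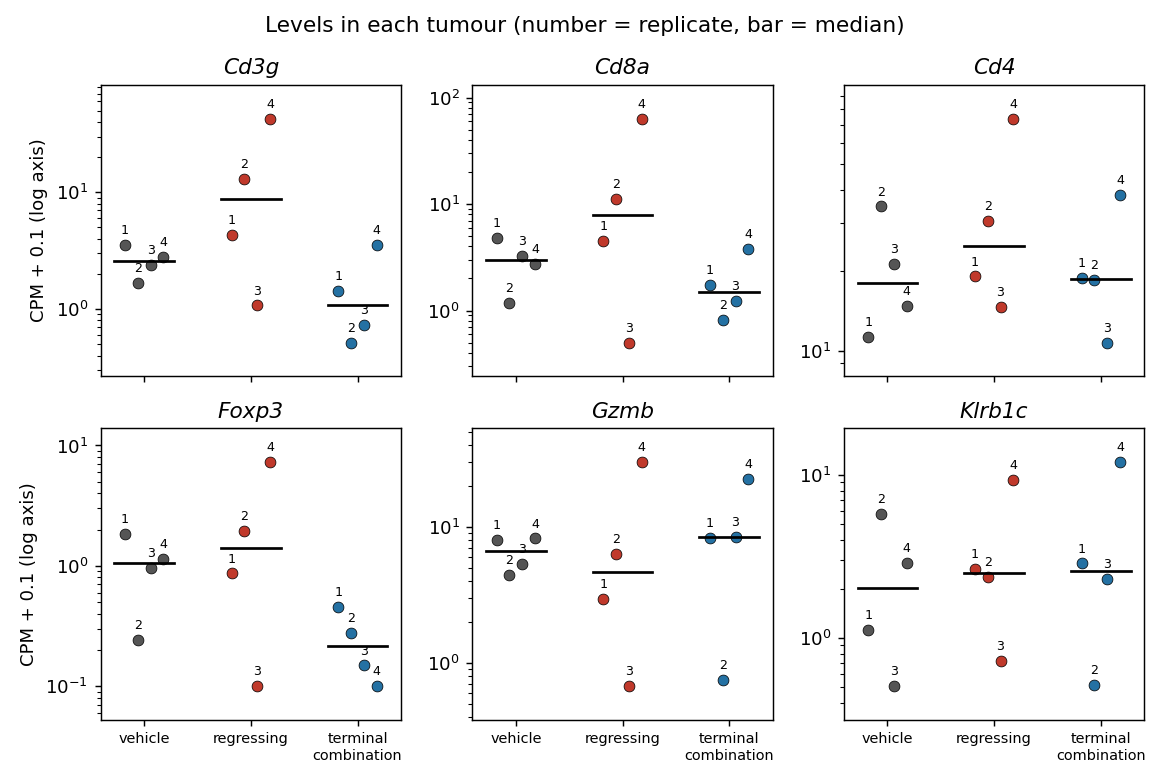
Levels of 6 genes in each tumour (CPM + 0.1, log axis) by group, with the replicate number above each point and the group median as a bar. Regressing replicate 4 is highest for Cd3g, Cd8a, Cd4, Foxp3 and Gzmb, and terminal combination replicate 4 for Klrb1c at 11.9 CPM.

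The cytokine receptors Il7r (survival of resting T cells) and Il2rb (IL-2 and IL-15 receptor) reached 23.4 and 123 CPM in regressing replicate 4. Il7r was at 0.286 to 4.36 CPM elsewhere. Il2rb, carried by natural killer cells too, was highest of the rest in terminal combination replicate 4 (40.3 CPM) and lowest in terminal combination replicate 2 (2.44 CPM).

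Tcf7, among the lineage factors, was spread over the tumours in another order than the CD3 genes. This factor of naive and memory T cells was at 13.0, 16.2, 64.6 and 25.7 CPM in the vehicle, 13.0, 15.6, 22.4 and 89.7 in the regressing and 21.8, 22.2, 24.6 and 30.2 in the terminal combination tumours. Vehicle replicate 3 was thus close to regressing replicate 4, without high CD3 levels. Per kilobase, the ratio of Tcf7 to Cd3e ran from 4.27 in regressing replicate 2 to 144.5 in terminal combination replicate 2, the latter over 4 counts of Cd3e. Lef1, its relative, was at 20.4 CPM in regressing replicate 4 and 5.08 in vehicle replicate 3, with 0 counts in vehicle replicate 2. Gata3, Tbx21 and Eomes (factors of type 2, type 1 and cytotoxic lymphocytes) were at 7.02, 5.79 and 7.02 CPM in regressing replicate 4 and at most 3.14, 1.94 and 2.5 elsewhere. All 5 factors were higher in regressing than in vehicle tumours with replicate 4 and lower without it, none at an unadjusted p under 0.05.

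The CD8 coreceptor chains had the largest fitted differences of the tested set between regressing and vehicle tumours with all 12 tumours in edgeR, 2.76 for Cd8a and 2.85 for Cd8b1. Without regressing replicate 4, Gzmk (1.77), Cd3g (1.27) and Cd28 (1.23) were among those above them, and in DESeq2 Ifng (3.06) was. Cd8a (chromosome 6, 71373427 to 71379173) was at 4.75, 1.07, 3.15 and 2.63 CPM in the vehicle, 4.4, 11.1, 0.399 and 63.5 in the regressing and 1.64, 0.715, 1.12 and 3.71 in the terminal combination tumours. Regressing replicate 3 was the lowest of all 12 and replicate 4 the highest, and 3 of the 4 terminal combination tumours were below 3 of the 4 vehicle tumours. The difference from vehicle was 2.76 ± 1.11 log2 units (adjusted p = 0.341, edgeR), and 0.86 ± 0.88 without regressing replicate 4 (adjusted p = 0.818). Cd8b1, the beta chain, was at 59.9 CPM in regressing replicate 4 and 0.0887 in replicate 3, within the limit that a count of 0 allows there (0.133 CPM). Per kilobase, Cd8a to Cd4 was 0.954 in regressing replicate 4 and 0.0305 to 0.47 in the other 11.

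Granzymes and perforin did not follow CD8 in every tumour. Gzmb, the granzyme that activates caspases, was at 7.96, 4.36, 5.24 and 8.17 CPM in the vehicle, 2.87, 6.27, 0.577 and 30.0 in the regressing and 8.29, 0.655, 8.36 and 22.7 in the terminal combination tumours. Regressing replicate 4 was highest, terminal combination replicate 4 next, and regressing replicate 3 and terminal combination replicate 2 were under 1 CPM. The difference from vehicle was 0.62 ± 1.03 log2 units in regressing and 0.64 ± 1.03 in terminal combination tumours (adjusted p = 0.824 and 0.945, edgeR). Leaving out regressing replicate 4 turned the regressing difference to -0.99 ± 0.94 (adjusted p = 0.796).

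Per kilobase, the ratio of Gzmb to Cd8a was 4.24, 10.3, 4.21 and 7.88 in the vehicle, 1.65, 1.43, 3.66 and 1.20 in the regressing and 12.8, 2.32, 18.8 and 15.5 in the terminal combination tumours. All 4 regressing tumours, replicate 4 among them, lay below all 4 vehicle tumours, and 3 of the 4 terminal combination tumours lay above them. The smallest counts behind it were 11 for Gzmb and 9 for Cd8a; the ratio was not tested. It was the 1 of 8 ratios computed in which regressing and vehicle tumours did not overlap.

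Prf1, perforin, was at 15.9 CPM in regressing replicate 4 and 8.04 in terminal combination replicate 4, against 0.476 to 5.05 elsewhere. Nkg7, a granule protein of cytotoxic cells, was at 51.8, 16.9 and 15.9 CPM in regressing replicates 4 and 2 and terminal combination replicate 4, and at most 9.37 elsewhere. Gzma and Gzmk stayed low: Gzma did not exceed 1.93 CPM and Gzmk was highest in regressing replicate 2 at 3.83. The Gzmk difference from vehicle was 1.81 ± 1.19 log2 units, and 1.77 ± 1.32 without regressing replicate 4 (adjusted p = 0.54 and 0.748, edgeR), and the gene is 1 of the 4 that needed regressing libraries to pass the filter. Ifng, interferon gamma, did not pass the filter on low counts: its highest level was 0.755 CPM, 13 counts, in regressing replicate 2, and 5 tumours had 0 counts.

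Among the natural killer receptors, Ncr1 and Klrb1c were highest in replicate 4 of both treated groups. Ncr1 (NKp46, chromosome 7, 4337724 to 4345164) was at 1.03, 2.57, 0.559 and 0.875 CPM in the vehicle, 0.828, 0.406, 0.0887 and 5.17 in the regressing and 1.07, 0.179, 0.635 and 5.48 in the terminal combination tumours. Klrb1c (NK1.1) was at 11.9 CPM in terminal combination replicate 4, 9.18 in regressing replicate 4 and 5.65 in vehicle replicate 2, and at most 2.8 elsewhere; 17.0% of its 50-base stretches also occur in Gm44511 and other genes. Without regressing replicate 4, both were lower in regressing than in vehicle tumours, by -1.51 ± 1.10 and -0.44 ± 1.06 log2 units (adjusted p = 0.743 and 0.929, edgeR).

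Klrk1 (NKG2D) and Klrd1 (CD94), which CD8 T cells carry as well, were at 29.7 and 9.1 CPM in regressing replicate 4 and at most 8.0 and 3.19 elsewhere. Klrk1 differed between regressing and terminal combination tumours by 2.02 ± 0.82 log2 units (unadjusted p = 0.0302, adjusted p = 0.692, edgeR), and by 0.64 ± 0.62 without regressing replicate 4 (unadjusted p = 0.319, adjusted p = 0.966). Per kilobase, Ncr1 to Cd3e was 1.02 to 19.1 in the vehicle, 0.189 to 1.57 in the regressing and 1.99 to 4.46 in the terminal combination tumours, the 1 of the 8 in which regressing and terminal combination tumours did not overlap, over as few as 2 counts of Ncr1 and 4 of Cd3e.

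Lists of related genes were read the same way. Of 20 other T cell genes, all 20 were highest in regressing replicate 4 (11.7% of all genes tested were). Of the 14 tested, 14 were higher in regressing than in vehicle tumours (48.5% of all). By edgeR 3 of them were at an unadjusted p under 0.05 (6.72% of all, as higher) and 0 passed after adjustment (0.0% of all). Without that tumour 9 of the 14 were higher (47.3% of all). Of 7 tested genes of naive and recirculating lymphocytes, 6 were higher in regressing tumours (48.5% of all). Ccr7, a chemokine receptor that guides cells into lymph nodes, was at 95.7 CPM in regressing replicate 4 and at most 9.32 elsewhere. Of 5 tested gamma delta T cell genes 4 were higher (48.5% of all). The delta constant gene Trdc was at 8.1 CPM in regressing replicate 4 and 0.408 to 4.27 elsewhere. Of 5 genes listed for thymocytes only 1, Cd1d1, was tested. It was lower in regressing than in vehicle tumours, and by itself it does not measure thymocytes.

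Markers of other cells moved in the same tumour. Summed B cell genes were at 293 CPM in regressing replicate 4 and 8.04 to 35.3 CPM in the other 11. All 10 of 10 genes were highest there, of which 3 were tested (11.7% of all genes tested were highest there). Cd79a, a B cell receptor chain, was at 58.0 CPM there and at most 1.97 elsewhere. Summed dendritic cell genes were at 212 CPM there and 18.7 to 78.9 elsewhere. Without Ccr7, counted above as a lymphocyte gene, they were at 116 against 16.3 to 76.9. Itgax alone made up much of this, at 68.1 CPM there and at most 49.2 elsewhere. Of the 8 dendritic cell genes 7 were highest there (11.7% of all genes tested were), and Cd209a, at 2.7 CPM there, was not. Summed adipocyte genes were at 2273 CPM there and 19.98 to 578 elsewhere, with Car3 alone at 1688 there and at most 414 elsewhere. Of 10 adipocyte genes, 8 were highest there (11.7% of all genes tested were), and Lep and Pparg were not. Of the 9 matched genes of lymph node stroma and venules, 5 were tested. Of the 9, 5 were highest in regressing replicate 4, but not all of those were tested. The share over all genes, 11.7%, covers tested genes only, so the 2 cannot be compared directly. Glycam1, a sulphated ligand of high endothelial venules and highest there, was at 3.5, 1.04, 0.621 and 10.8 CPM in the regressing tumours. It was at 0 to 0.0508 CPM in the vehicle and 0.102 to 1.07 in the terminal combination tumours. Ccl21a was at most 0.191 CPM in any tumour. Its scaffold copies were left out, so reads assigned to them are missing from this level. Summed macrophage genes, at 2492 CPM, were within the range of the other tumours. The part of these cells or of adjoining tissue in the lymphocyte values was not tested.

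**Figure D5:**
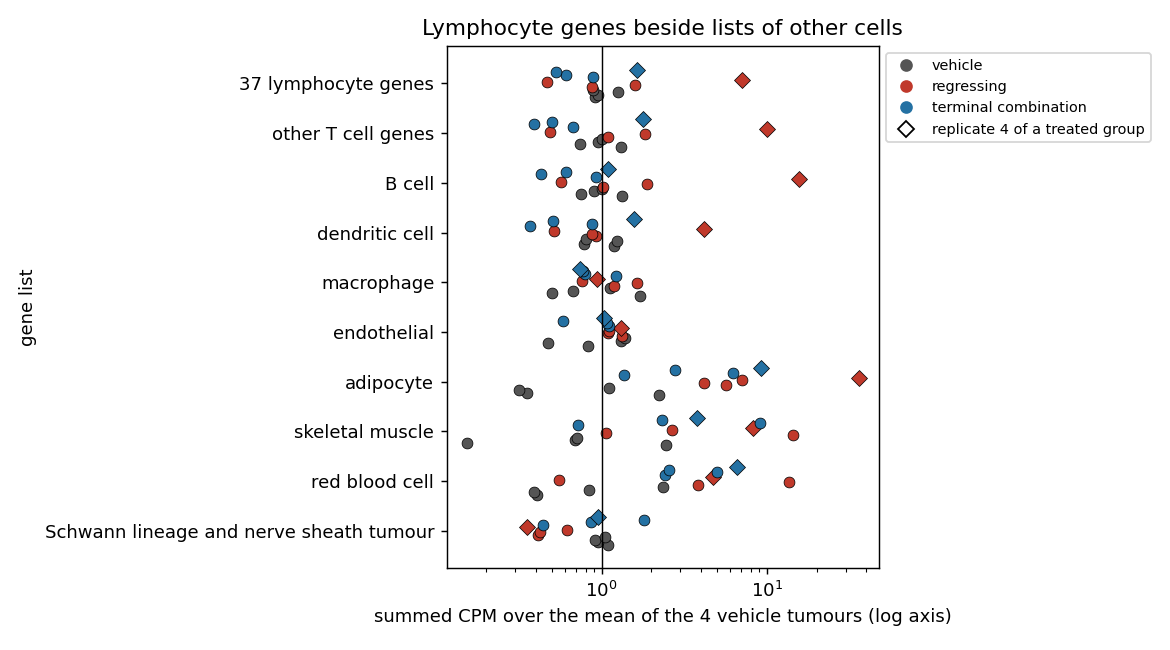
Summed CPM of the 37 lymphocyte genes and of 9 other gene lists in each tumour, divided by the mean of the 4 vehicle tumours (log axis), by group, with replicate 4 of each treated group as a diamond. The red diamond (regressing replicate 4) is the rightmost point for the lymphocyte, other T cell, B cell, dendritic cell and adipocyte lists. It lies among the other points for macrophage genes. Trbc2, Cd4 and Tcf7 make up much of the lymphocyte sum in some tumours. Car3 makes up most of the adipocyte sum in regressing replicate 4.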

How the data were processed

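The authors deposited raw counts, a whole number per Ensembl gene in each of 12 libraries, per the file contents, for polyadenylated RNA prepared with a TruSeq Stranded mRNA kit per the labels' protocols. The submitters' processing notes name HISAT2 2.2.1, Salmon, DESeq2 1.24.0, mm10 and GRCm38.p6. The counting program, strand setting and annotation release are not given in the sources used here, so overlapping genes and close copies could share reads. Symbols came from GENCODE M21 (54495 of 54532 identifiers).

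Genes were filtered with filterByExpr (minimum count 10, minimum total 15), which left 15650, normalised by TMM and tested with edgeR 4.0.16 (quasi-likelihood, all 12 libraries, 3 comparisons, 9 residual degrees of freedom) in R 4.3.3. Benjamini-Hochberg adjustment covered all tested genes, and the threshold was 0.05. DESeq2 1.42.0 was run as an alternative. Of the 36 tested genes of the set, 32 had 4 or more libraries above the filter's level (0.552 CPM at the median depth) outside the regressing group. CPM used TMM-scaled library sizes. A count of 0 allows a level of up to 3 counts, 0.128 to 0.231 CPM, which covers counting error only. Libraries differed from each other beyond sampling noise (lowest chi-square per degree of freedom 57.1). The script was tested on simulated data.

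The 37 genes and all lists, 9 within the set and 18 of other genes, were chosen with earlier results of these data known. All 37 genes are accounted for. From another list, the tested genes with the smallest unadjusted p in regressing against vehicle tumours could be named, up to 4 a list. Ccl21a, Ccl5, Itgax and Cd209a were named after their values were seen. The remaining lists had these numbers of genes higher in regressing than in vehicle tumours, of those tested: other cytotoxic and natural killer genes 12 of 17, plasma cell 5 of 7, macrophage 8 of 10, neutrophil 1 of 4, mast cell 7 of 8, skeletal muscle 10 of 10, red blood cell 6 of 6, keratinocyte 1 of 3, endothelial 5 of 8 and Schwann lineage 5 of 10, with 0 past the adjusted threshold in each. Of all genes tested, 48.5% were higher in regressing than in vehicle tumours and 0.0% passed the adjusted threshold by edgeR. The title ending FFT, carried by 4 libraries, has no explanation in the labels. Figures were drawn with matplotlib 3.10.9.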

Additional observations from a re-analysis of the deposited data

Results flagged for a closer look

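In each group of 4 tumours, the gap from the highest or lowest tumour to its nearest neighbour was divided by the group's range, and a ratio above Dixon's critical value marked a tumour far from the others. Of 111 groups examined (37 genes in 3 groups), 29 held such a tumour. Chance gives about 1 in 20, but only for independent groups of normally distributed values. The 37 genes were read in the same tumours, and most of the flags come from replicate 4 of the treated groups. The 111 groups are thus not independent. The ratio was taken on CPM, and no share over all genes tested is given. Whether 29 exceeds chance was therefore not tested. Regressing replicate 4 was far above its group for Cd247 (22.8), Trac (54.5), Trbc1 (32.3), Cd2 (34.5), Cd5 (19.8), Cd6 (28.1), Lck (84.2), Zap70 (19.98), all in CPM. It was likewise above for Lat (33.9), Il7r (23.4), Tcf7 (89.7), Lef1 (20.4), Gata3 (7.02), Tbx21 (5.79), Cd8a (63.5), Cd8b1 (59.9) and Ncr1 (5.17) CPM. Terminal combination replicate 4 was far above its group for Trac (3.65), Cd2 (4.11), Cd6 (2.4), Cd28 (2.4), Il7r (1.94), Gzmk (1.54) and Ncr1 (5.48) CPM. In the vehicle group, replicate 1 stood above the others for Cd28 (1.41) and Tbx21 (0.898) CPM and replicate 3 for Gata3 (2.8) and Ifng (0.152) CPM, and replicate 2 stood below them for Cd6 (0.357) CPM. The Ifng value rests on 3 counts.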

How the results depend on the processing

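No paired analysis was possible because the labels give no pairing of tumours. The median difference of the set kept its sign in each comparison under every alternative run (DESeq2, RLE normalisation, no filter, FFT as a covariate, libraries without FFT, the 2 groups alone, each library left out and, chosen after seeing the data, without the 3 muscle-rich libraries). Genes called by edgeR stayed at 0 in these, except 1 in regressing against terminal combination without terminal combination replicate 4. DESeq2 called 485 genes in regressing against vehicle, 11 in terminal combination against vehicle and 82 in regressing against terminal combination tumours, with 1, 0 and 3 of the set among them. Without regressing replicate 4, a setting added after seeing the data, DESeq2 called 177, 9 and 23 genes and 0 of the set in each comparison. Left-out libraries moved the median difference between 0.03 and 2.02, between -1.06 and -0.15, and between 0.62 and 2.84 log2 units in the 3 comparisons in that order. The median without the 3 muscle-rich libraries was 0.16, -0.16 and 0.33.

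Single genes changed sign, none of them past the threshold. With only the libraries without FFT, regressing against vehicle gave Tcf7 -0.09 and Gzma 0.15, terminal combination against vehicle gave Icos 0.29, Cd247 0.08, Gata3 -0.16, Il2ra 0.83, Trbc2 -0.06 and Gzmk 0.51, and regressing against terminal combination gave Gzmb 0.21. With FFT as a covariate, Cd28 was at -0.16 and Cd4 at -0.0023 in terminal combination against vehicle. DESeq2 gave Gzmk 0.011 there, and the 2 groups alone gave Gzmb 0.015 in regressing against terminal combination. The cause of these changes was not tested. Ranges over left-out libraries that crossed 0 follow, in log2 units. In regressing against vehicle they were Gzma -1.29 to 0.29, Zap70 -0.1 to 2.02, Gata3 -0.43 to 1.56, Il2ra -0.29 to 1.43, Foxp3 -0.15 to 1.83 and Lef1 -1.97 to 2.12. Next came Lck -0.012 to 2.49, Trbc2 -0.12 to 0.85, Klrb1c -0.44 to 1.36, Klrd1 -0.42 to 1.2, Klrk1 -0.21 to 1.59 and Ncr1 -1.52 to 0.95. Others were Prf1 -0.0029 to 1.52, Gzmb -0.99 to 1.01, Eomes -0.24 to 1.16, Tcf7 -0.81 to 0.96, Tbx21 -0.22 to 2.03 and Il2rb -0.37 to 1.43. All of these but Gzma crossed without regressing replicate 4. In terminal combination against vehicle they were Cd247 -0.94 to 0.19, Il2ra -0.68 to 0.32, Cd4 -0.36 to 0.45, Lat -0.25 to 0.16, Cd3e -1.45 to 0.035 and Gzmk -1.65 to 0.38. After these came Eomes -0.71 to 0.03, Zap70 -0.95 to 0.29, Trbc2 -0.21 to 0.46, Cd28 -0.92 to 0.37, Lef1 -1.09 to 0.12 and Tcf7 -0.52 to 0.43. Also crossing were Lck -1.11 to 0.05, Nkg7 -1.27 to 0.23, Il2rb -1.11 to 0.11, Gata3 -0.12 to 0.99, Klrb1c -0.44 to 1.61 and Ncr1 -0.97 to 1.15. The remaining ranges were Prf1 -0.69 to 0.66, Gzmb -0.15 to 1.03 and Tbx21 -0.25 to 0.91. In regressing against terminal combination they were Gzmb -1.63 to 0.77, Ncr1 -2.07 to 1.32, Klrb1c -1.25 to 1.01, Zap70 -0.0062 to 2.6, Gata3 -0.77 to 1.01 and Il2ra -0.21 to 1.7. To these add Lef1 -1.29 to 2.39, Trbc2 -0.22 to 0.67, Cd4 -0.011 to 1.11, Klrd1 -0.05 to 1.95, Prf1 -0.3 to 1.86 and Tcf7 -0.54 to 0.78. Others were Tbx21 -0.78 to 1.89 and Il2rb -0.12 to 2.17. At these depths a level under about 0.231 CPM could not be told from 0.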

Other observations

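Terminal combination replicate 4 differed from the rest of its group for several lymphocyte genes. It was above the vehicle range for 19 of 36 genes, and the highest of all 12 tumours for Ncr1 and Klrb1c. Regressing replicate 4 was next for both, at 5.17 and 9.18 CPM. Foxp3 had 0 counts in terminal combination replicate 4, as in regressing replicate 3, and 7, 3 and 1 in the rest of the terminal combination group. Among T cell genes of terminal combination replicate 4, Cd3e (3.25 CPM), Cd247 (3.19), Cd2 (4.11), Lck (11.1) and Zap70 (4.45) were above every vehicle tumour. Cd8a (3.71) and Cd3g (3.42) were within the vehicle range. Summed other cytotoxic and natural killer genes were highest there, at 414 CPM, against 294 in regressing replicate 4 and 51.0 to 203 in the other 10. Ccl5, a chemokine of cytotoxic cells and the largest part of that sum, was at 344 CPM there, 200.1 in regressing replicate 4 and 4.88 to 112 in the others; it was chosen for mention after its values were seen. B cell genes summed to 20.5 CPM in this tumour, within the vehicle range of 14.0 to 24.9.

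Gzmc and Klra4 were distributed unlike the CD8 genes, and neither passed the adjusted threshold. Gzmc, a granzyme of activated lymphocytes, was at 6.29, 54.5, 9.15 and 13.1 CPM in the vehicle, 0.255, 2.32, 1.29 and 12.2 in the regressing and 10.9, 9.11, 12.9 and 11.2 in the terminal combination tumours. Its difference between regressing and vehicle tumours was -2.38 ± 0.96 log2 units (unadjusted p = 0.0302, adjusted p = 0.344, edgeR). Klra4, a Ly49 receptor gene, was at 19.2 to 44.0 CPM in the regressing and 2.64 to 22.4 in the vehicle tumours, a difference of 1.31 ± 0.55 (adjusted p = 0.355, edgeR), with regressing replicate 4 the lowest of its group. The terminal combination tumours, at 32.0, 41.9, 23.6 and 27.5 CPM, were all above every vehicle tumour, with a difference of 1.27 ± 0.55 (unadjusted p = 0.0393, adjusted p = 0.819, edgeR).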
